A study of Mus musculus with 12 samples.

Results

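The 10 genes described here encode regulators of cardiac progenitors: Nkx2-5, Tbx5, Hand1 and Smarcd3, grouped as first heart field genes, Isl1, Mef2c, Hand2 and Tbx20, grouped as second heart field genes, and the T-box repressors Tbx2 and Tbx3. They were chosen by symbol, each matched 1 Ensembl gene, and they are 10 of the 38924 mouse genes counted in every library. All 10 passed the expression filter that left 14170 genes for testing. RNA was sequenced in 12 libraries, 3 for each of 4 cell types sorted from E7.25 mouse embryos, a stage before the heart tube forms. All groups are labelled with the mouse line Foxa2Cre:Rosa26-YFP, in which Cre expressed from Foxa2 switches on a yellow fluorescent protein (YFP) in cells that have expressed Foxa2 and in their descendants. The types were YFP+ cardiac mesoderm, given as ventricular in the labels, YFP- cardiac mesoderm, given as non-ventricular, endoderm sorted as EPCAM+ and hematopoietic mesoderm sorted as KDR+. No treatment or further allele is named, and the number of embryos behind a library is not given in the sources used here, so p-values measure only the spread between these libraries.

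Cardiac mesoderm arises from cells that leave the primitive streak and move forward on both sides of the embryo. The first heart field forms the cardiac crescent and contributes much of the left ventricle, and the second heart field adds the outflow tract, the right ventricle and parts of the atria. Nkx2-5, Tbx5, Gata4 and Mef2c bind heart gene enhancers together, Hand1 and Hand2 are basic helix-loop-helix factors, and Smarcd3 is a subunit of the BAF chromatin remodelling complex. Tbx2 and Tbx3 repress the working-muscle programme in parts of the later heart that stay non-chamber, and Hand1 and Tbx3 are also expressed outside the heart, including in extraembryonic tissue.

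Gene counts totalled 4472800 to 7888631 per library, and levels are given as library-size scaled counts (CPM) after scaling by the trimmed mean of M values, in the order of replicates 1, 2 and 3. The labelled types were checked against their defining markers. All 14 endoderm markers had counts in each endoderm library, with a summed level of 2797 to 6062 CPM against at most 205.8 CPM elsewhere. Foxa2 was at 52.3, 58.8 and 62.3 CPM in endoderm, at 0.416, 0 and 5.92 CPM in YFP+ cardiac mesoderm and at 0 in the 3 YFP- libraries. The 8 epiblast and primitive streak markers also summed highest in endoderm, at 1331 to 1477 CPM against at most 903.7 CPM elsewhere. Of these, Utf1 was at 108.2, 115.5 and 116.1 CPM in endoderm and at most 19.8 CPM elsewhere. T, brachyury, instead had its highest mean in hematopoietic mesoderm (282.6 CPM, against 176.3 CPM in endoderm). The part of these markers in the comparisons with endoderm was not tested. The 14 hematopoietic and endothelial markers summed to 1640 to 2691 CPM in hematopoietic mesoderm against at most 407.2 CPM elsewhere. Hematopoietic replicate 3 stood apart within its type: Gata1, an erythroid factor, was at 74.2, 46.6 and 0.21 CPM in the 3 libraries, and the embryonic globin Hbb-bh1 was at 11.3, 7.27 and 0 CPM. Its Cdh5, a vascular cadherin, was at 145.5 CPM, between the 101.2 and 159.9 CPM of the other two. Results that rest on this library are given with and without it below.

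Hand1, Tbx3 and Tbx20 were the abundant members. Per kilobase of exon, Hand1 led in both cardiac fractions with 167.8 CPM per kb in YFP+ and 166.6 CPM per kb in YFP- cells, followed by Tbx3 with 59.8 and 67.6, Tbx20 with 43.5 and 32.4, and Hand2 with 18.8 and 11.9. Next came Tbx5 in the YFP+ fraction with 12.6 CPM per kb and Isl1 in the YFP- fraction with 5.95 CPM per kb. Nkx2-5 was the lowest of the 10 in YFP+ cells at 1.14 CPM per kb. In hematopoietic mesoderm the order again began with Hand1, Tbx3 and Tbx20, at 91.1, 51.0 and 27.4 CPM per kb. Endoderm had a different order, with Tbx3 at 10.2, Nkx2-5 at 9.32 and Hand1 at 8.65 CPM per kb. The spread over libraries was wide for several of these means, as the values by library show.

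**Figure D1:**
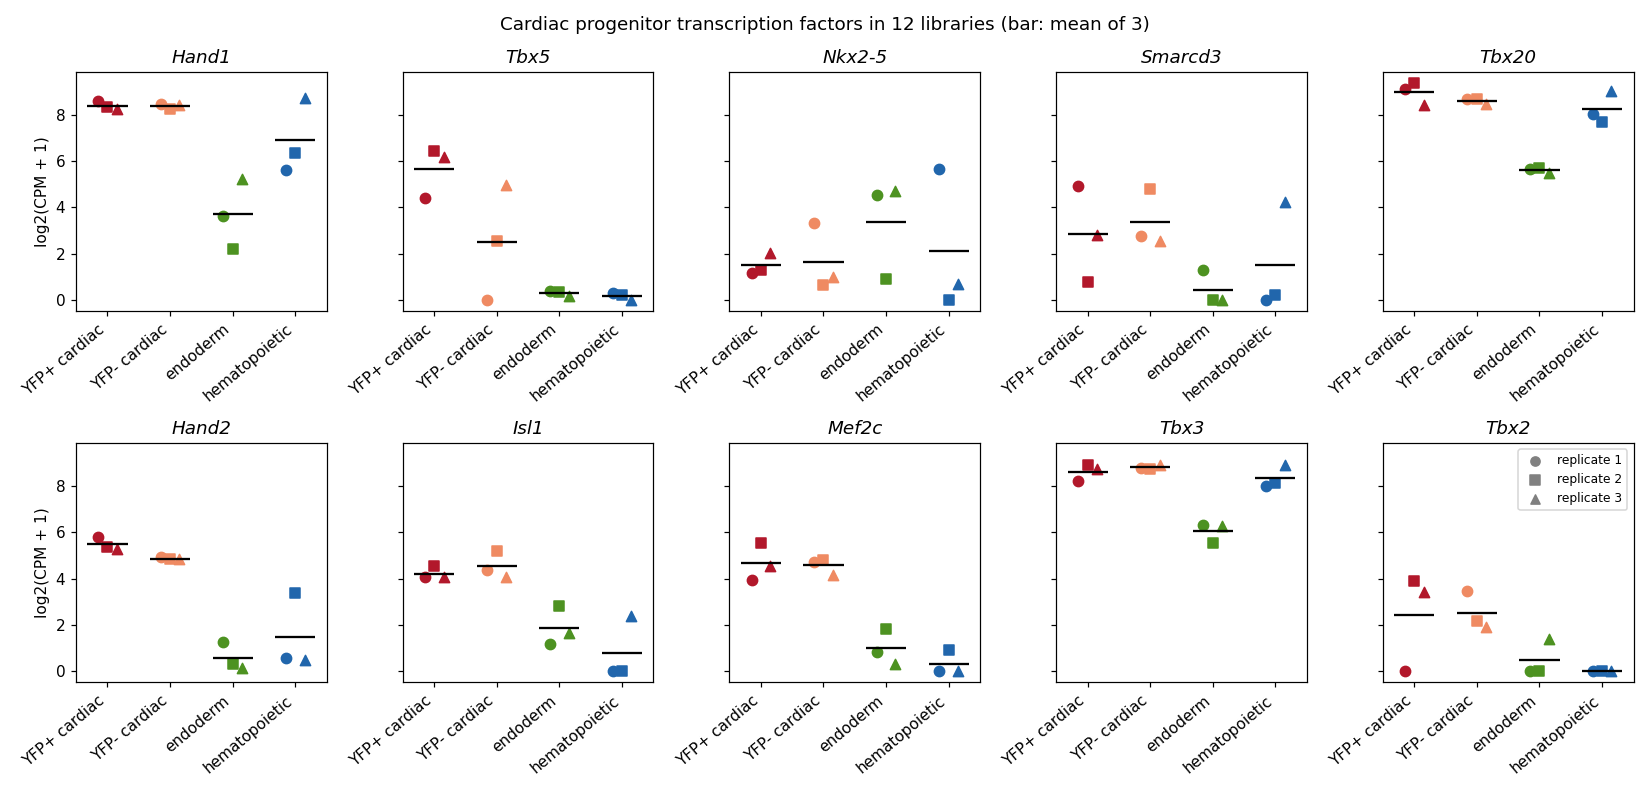
Level of each of the 10 genes in the 12 libraries, as log2(CPM + 1) on the vertical axis, by sorted type on the horizontal axis; each marker shape is a replicate number and each bar the mean of 3 libraries. Tbx20 and Tbx3 sit lower in endoderm than in the other types, Tbx5 is near 0 outside cardiac mesoderm, and the values of Nkx2-5 overlap between all types.

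The 4 types differed in 6 of the 10 genes by edgeR's quasi-likelihood test at an adjusted p under 0.05, where 6.03% of all genes tested did. These were Tbx20 (adjusted p = 0.000628), Tbx3 (0.000916), Tbx5 (0.0192), Hand1 (0.0344), Mef2c (0.0371) and Hand2 (0.0428). The edgeR adjusted p was 0.207 for Tbx2, 0.248 for Isl1, 0.571 for Smarcd3 and 0.631 for Nkx2-5. Without hematopoietic replicate 3, 7 genes were called, with Isl1 added. The count fell to 2, Tbx20 and Tbx3, without endoderm replicate 1 or 2, and these 2 genes stayed called whichever of the 12 libraries was left out. It was 3 without endoderm replicate 3 (with Hand1) and without YFP+ replicate 2 or 3 or any YFP- replicate (with Tbx5), 4 without YFP+ replicate 1, 5 without hematopoietic replicate 1 and 6 without hematopoietic replicate 2. For fits that leave out 1 library, here and below, the share of all genes called is not given. A change in those counts of members cannot be told apart from a change over all genes. In bulk samples, fewer cells of a type and less RNA per cell cannot be told apart.

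Among first heart field genes, Hand1 (chromosome 11, 57828705 to 57832818, minus strand of GRCm38), a factor of lateral and extraembryonic mesoderm, had its highest level in cardiac mesoderm and in 1 hematopoietic library. It measured 383.6, 318.9 and 302.6 CPM in YFP+ cells and 355.6, 306.3 and 336.3 CPM in YFP- cells. Endoderm had 11.4, 3.62 and 36.7 CPM, and hematopoietic mesoderm 47.5, 81.4 and 416.9 CPM. All 6 cardiac libraries lay above all 3 endoderm libraries, whereas hematopoietic replicate 3 lay above every cardiac library and the other two hematopoietic libraries below. Against endoderm the log2 fold change was 4.27 ± 0.84 (SE, edgeR adjusted p = 0.0231) for YFP+ and 4.26 ± 0.84 (adjusted p = 0.0240) for YFP- cells. The YFP+ call was lost without YFP+ replicate 1 or 2 or endoderm replicate 1 or 2 (edgeR adjusted p = 0.0506 to 0.161), and the YFP- call without any 1 of the YFP- libraries or endoderm replicate 1 or 2 (0.0697 to 0.166). For both fractions together it was 4.27 ± 0.81 (SE, edgeR adjusted p = 0.0104), lost without endoderm replicate 1 (0.0781). Between cardiac and hematopoietic mesoderm the spread exceeded the difference, with a log2 difference of 0.88 (95% interval -0.55 to 2.30, edgeR adjusted p = 0.491) for the mean of both fractions. Without hematopoietic replicate 3 that difference was 2.37 (adjusted p = 0.0556).

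Tbx5 (chromosome 5, 119832668 to 119885219, plus strand), a T-box activator of chamber genes, was found almost only in the cardiac fractions, and its level there varied between libraries. YFP+ cells had 20.2, 85.5 and 71.1 CPM, and YFP- cells had 0, 4.90 and 30.0 CPM. Endoderm held 2, 2 and 1 counts and hematopoietic mesoderm 1, 1 and 0 counts, all at or below 0.318 CPM. YFP- replicate 1 had no count, which allows up to 0.503 CPM, so that 1 cardiac library did not exceed the other types. Tbx5 was the only member with at least 100 counts in 1 YFP- library and at most 3 in another, a pattern that 3.48% of the genes reaching 100 counts in that type had. The ratio of the YFP+ level to the hematopoietic level was 444.5 (95% interval from counting error alone 122.7 to 3675), and to the endoderm level 271.5 (115.9 to 838). In the edgeR fit Tbx5 was higher in YFP+ cells than in hematopoietic mesoderm (log2 8.55 ± 1.94 SE, adjusted p = 0.0479), a call lost when any 1 of the 6 libraries was left out (0.0554 to 0.101). Against endoderm the YFP+ fraction narrowly missed the threshold (log2 7.89 ± 1.84 SE, edgeR adjusted p = 0.0530), while the mean of both fractions passed it (6.72 ± 1.71 SE, adjusted p = 0.0429). That last call was lost in 8 of the 9 fits without 1 library (up to 0.196, without endoderm replicate 3), all but the one without YFP- replicate 1.

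Nkx2-5 (chromosome 17, 26838664 to 26845009, minus strand), a homeobox factor and a common marker of the cardiac crescent, was low in cardiac mesoderm at this stage. It reached 1.25, 1.46 and 3.15 CPM in YFP+ cells and 9.05, 0.560 and 1.01 CPM in YFP- cells. Higher values stood in endoderm replicates 1 and 3 and in hematopoietic replicate 1. The levels were 21.9, 0.906 and 25.2 CPM in endoderm and 49.4, 0 and 0.63 CPM in hematopoietic mesoderm, where the counts were 205, 0 and 3. The types overlapped, and no pair was called by edgeR (adjusted p of at least 0.347 in the comparisons of cardiac mesoderm with another type). In hematopoietic mesoderm 15% of the genes that reached 100 counts in 1 library had at most 3 in another, as Nkx2-5 did. Without hematopoietic replicate 1, the library with 205 counts, the fitted difference of both fractions from hematopoietic mesoderm turned from -2.65 to 3.02 on the log2 scale.

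Smarcd3 (chromosome 5, 24590818 to 24624411, minus strand), whose product links the BAF complex to cardiac factors, had single high libraries in 3 types. It was at 28.9, 0.729 and 6.11 CPM in YFP+ cells, 5.86, 26.5 and 4.78 CPM in YFP- cells, 1.43, 0 and 0 CPM in endoderm and 0, 0.173 and 18.1 CPM in hematopoietic mesoderm. Every YFP- library exceeded every endoderm library, but no pair of types was called (edgeR adjusted p of at least 0.364 for cardiac mesoderm against another type). The exons of Smarcd3 share 2466 bases with Chpf2 on the opposite strand, and without a stated strand setting reads of this pair cannot be told apart. Chpf2 was highest in hematopoietic replicate 2 (32.9 CPM) and YFP+ replicate 2 (24.6 CPM), where Smarcd3 was at 0.173 and 0.729 CPM.

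All 4 second heart field genes were higher in each cardiac library than in each endoderm library. Hand1 and Tbx3 met the same condition, which 6 of 10 members and 5.21% of all genes tested met. Both are among the 4 of 10 members for which no upstream window was matched. The 250 bases upstream of the annotated starts of the second heart field genes are shown, 5′ to 3′ on the strand of the gene, from RefSeq (GRCm38.p6). Capitals mark GATA motifs (the spelling AGATAA, the spelling AGATAG, the spelling TGATAA or the spelling TGATAG) and E-boxes (CANNTG), the sites bound by Gata4-like and by Hand-like factors, on either strand. The windows are chr9:24774304-24774553 (minus strand) for Tbx20, chr8:57320733-57320982 (plus) for Hand2, chr13:116309689-116309938 (minus) for Isl1 and chr13:83503784-83504033 (plus) for the first annotated start of Mef2c.
Tbx20: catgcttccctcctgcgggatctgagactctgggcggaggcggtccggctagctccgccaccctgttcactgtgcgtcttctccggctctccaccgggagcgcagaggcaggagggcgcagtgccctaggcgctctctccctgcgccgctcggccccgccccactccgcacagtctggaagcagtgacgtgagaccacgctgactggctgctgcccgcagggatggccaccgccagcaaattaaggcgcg
Hand2: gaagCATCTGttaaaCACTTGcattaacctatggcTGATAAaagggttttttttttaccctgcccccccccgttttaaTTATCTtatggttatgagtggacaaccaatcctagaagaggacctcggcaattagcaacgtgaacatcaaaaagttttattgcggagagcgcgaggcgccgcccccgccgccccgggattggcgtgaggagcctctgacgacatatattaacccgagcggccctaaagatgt
Isl1: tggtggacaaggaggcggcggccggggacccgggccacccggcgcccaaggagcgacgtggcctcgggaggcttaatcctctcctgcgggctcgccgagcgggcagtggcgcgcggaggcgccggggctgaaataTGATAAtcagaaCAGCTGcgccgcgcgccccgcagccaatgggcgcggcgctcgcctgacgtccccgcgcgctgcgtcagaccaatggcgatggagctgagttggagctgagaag
Mef2c: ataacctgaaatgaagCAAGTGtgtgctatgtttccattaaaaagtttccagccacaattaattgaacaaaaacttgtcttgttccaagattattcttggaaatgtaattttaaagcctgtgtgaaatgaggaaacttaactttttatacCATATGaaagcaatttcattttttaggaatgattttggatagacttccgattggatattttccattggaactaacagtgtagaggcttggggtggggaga
Hand2 held 2 GATA matches and 2 E-boxes, Isl1 had 1 of each, Mef2c held 2 E-boxes and Tbx20 had neither. A search for the NKX2 motif (AAGTGG or AAGTGC) and the T-box motif (AGGTGT), both of which can overlap an E-box, found none in these 4 windows. Of the other Mef2c starts searched, the second held 1 T-box match and no E-box, and the third held 1 E-box. Of 32851 such windows in the RefSeq table, 26.5% held a GATA match, 66.2% an E-box, 22.7% an NKX2 match and 11.8% a T-box match, so the matches are a description and not evidence of binding. The Hand2 window lies within an exon of Hand2os1 on the opposite strand, and Smarcd3, with 1 GATA match and 1 E-box, was the other member searched whose window is not printed, beside Nkx2-5 with 1 E-box.

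Tbx20 (chromosome 9, 24718138 to 24774303, minus strand), a T-box factor needed for chamber growth, was lower in each endoderm library than in each mesoderm library. Its levels were 558.4, 664.1 and 344.0 CPM in YFP+ cells, 407.9, 408.9 and 348.8 CPM in YFP- cells, 49.0, 51.1 and 44.0 CPM in endoderm and 262.6, 205.6 and 518.1 CPM in hematopoietic mesoderm. The highest endoderm library (51.1 CPM) lay below the lowest mesoderm library (205.6 CPM), and hematopoietic replicate 3 fell among the cardiac libraries. The log2 fold change over endoderm was 3.44 ± 0.33 (SE, edgeR adjusted p = 0.000183) in YFP+ and 3.02 ± 0.33 (0.000374) in YFP- cells, and endoderm was lower than hematopoietic mesoderm by -2.77 ± 0.33 (0.000582). These 3 calls held in every alternative fit. YFP+ cells exceeded hematopoietic mesoderm by 0.67 ± 0.30 (SE, edgeR adjusted p = 0.250), which became 1.16 (0.0276) without hematopoietic replicate 3.

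Hand2 (chromosome 8, 57320983 to 57324633, plus strand), the partner of Hand1 in the heart-forming region, was highest in cardiac mesoderm. It measured 54.5, 39.7 and 38.1 CPM in YFP+ cells and 29.2, 27.5 and 27.4 CPM in YFP- cells, against 1.43, 0.259 and 0.119 CPM in endoderm and 0.482, 9.35 and 0.42 CPM in hematopoietic mesoderm. All 6 cardiac libraries exceeded all 6 others. Over endoderm the change was 6.18 ± 1.42 on the log2 scale (SE, edgeR adjusted p = 0.0496) for YFP+ cells and 5.85 ± 1.35 (0.0271) for the mean of both fractions, while YFP- cells alone missed the threshold (5.52 ± 1.38, 0.0771). The YFP+ call was lost without any 1 of its 6 libraries (0.0825 to 0.236). The call for both fractions was lost in 7 of 9 such fits (up to 0.129, without endoderm replicate 2), all but those without YFP+ replicate 2 or 3. Against hematopoietic mesoderm the mean difference was 3.34 ± 1.16 (SE, edgeR adjusted p = 0.132), and 6.23 (0.0213) without hematopoietic replicate 2. Hand2os1 shares 461 exonic bases with Hand2 on the opposite strand, and without a stated strand setting the reads of this pair cannot be told apart either.

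Isl1 (chromosome 13, 116298281 to 116309689, minus strand), the homeobox gene most often used to mark the second heart field, was detected in all 6 cardiac libraries. YFP+ cells had 15.8, 22.1 and 15.6 CPM and YFP- cells 19.6, 35.3 and 15.8 CPM. Endoderm had 1.27, 5.96 and 2.14 CPM, and hematopoietic mesoderm 0, 0 and 4.2 CPM, where 0 counts allow up to 0.723 and 0.520 CPM. The cardiac libraries did not overlap those of either other type. The differences were not called by edgeR: the mean of both fractions exceeded endoderm by 2.70 ± 1.38 on the log2 scale (SE, adjusted p = 0.404) and hematopoietic mesoderm by 3.85 ± 1.49 (0.168). Without hematopoietic replicate 3, the only library of its type with Isl1 counts, Isl1 was called in both fractions (edgeR adjusted p = 0.0155 for YFP+ and 0.0182 for YFP-).

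Mef2c (chromosome 13, 83504034 to 83667080, plus strand), a MADS-box factor of muscle and of the anterior second heart field, was at 14.4, 45.02 and 22.6 CPM in YFP+ cells and 25.6, 27.3 and 17.1 CPM in YFP- cells. Endoderm had 0.795, 2.59 and 0.238 CPM, and hematopoietic mesoderm 0, 0.866 and 0 CPM. The cardiac libraries stood clear of all others. Mef2c was the 1 member called for the mean of both fractions over hematopoietic mesoderm, at 6.27 ± 1.48 on the log2 scale (SE, edgeR adjusted p = 0.0450), where 1.26% of genes were called higher. This call was lost in 8 of 9 fits that left out 1 library (0.0513 to 0.0904), all but the one without hematopoietic replicate 2. Over endoderm the mean difference was 4.36 ± 1.31 (SE, edgeR adjusted p = 0.0880), which missed the threshold.

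Of the T-box repressors, Tbx3 (chromosome 5, 119670669 to 119684724, plus strand) was abundant in all mesoderm, and Tbx2 (chromosome 11, 85832551 to 85841948, plus strand) was scarce. Tbx3 measured 292.4, 471.1 and 425.3 CPM in YFP+ cells, 436.9, 427.1 and 480.2 CPM in YFP- cells, 79.7, 45.6 and 76.4 CPM in endoderm and 256.8, 280.1 and 477.3 CPM in hematopoietic mesoderm. The endoderm libraries were the lowest, and the 3 mesoderm types overlapped. Over endoderm Tbx3 rose by 2.56 ± 0.29 on the log2 scale (SE, edgeR adjusted p = 0.000456) in YFP+ and 2.74 ± 0.29 (0.000287) in YFP- cells, and endoderm was lower than hematopoietic mesoderm by -2.33 ± 0.28 (0.000720). All 3 calls held in every alternative fit. The difference between cardiac and hematopoietic mesoderm was 0.32 (95% interval -0.19 to 0.83, edgeR adjusted p = 0.483). Tbx3os1 shares 115 exonic bases with Tbx3 on the opposite strand and had counts only in YFP- replicate 2, at 56.

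Tbx2 had 0, 14.03 and 9.62 CPM in YFP+ cells and 10.1, 3.50 and 2.75 CPM in YFP- cells. Endoderm had 0, 0 and 1.66 CPM, and the 3 hematopoietic libraries had no count. The mean level was at least 12.6-fold higher in YFP+ cells and at least 8.71-fold higher in YFP- cells than the mean hematopoietic level that 3 counts per library allow. Neither fraction was called over hematopoietic mesoderm (edgeR adjusted p = 0.149 and 0.189).

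The members' counts over endoderm can be read beside those of all genes. In YFP+ cells 4 of 10 were called over endoderm (Tbx20, Hand1, Hand2 and Tbx3), where 0.953% of all genes were called higher, and 7 of 10 had every library above every endoderm library, where 10.9% of genes did. YFP- cells gave 3 calls (Tbx20, Hand1 and Tbx3), with 0.706% of genes called higher, and 8 of 10 with every library above, as for 12.2% of genes. For the mean of both fractions 5 were called, Tbx5 added, against 1.34% of genes called higher. No member was called lower in cardiac mesoderm than in endoderm. Both fractions were compared with the same endoderm libraries, so the counts are not independent. Per group, the median log2 difference over endoderm was 4.46 for the 4 first heart field genes and 3.80 for the 4 second heart field genes, beside -0.02 for all genes tested. This order turned without endoderm replicate 2, with medians of 3.90 for the first and 4.51 for the second heart field group, beside -0.05 for all genes. Without YFP+ replicate 1 the medians were 3.98 and 3.86. The groups were not tested against each other.

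**Figure D2:**
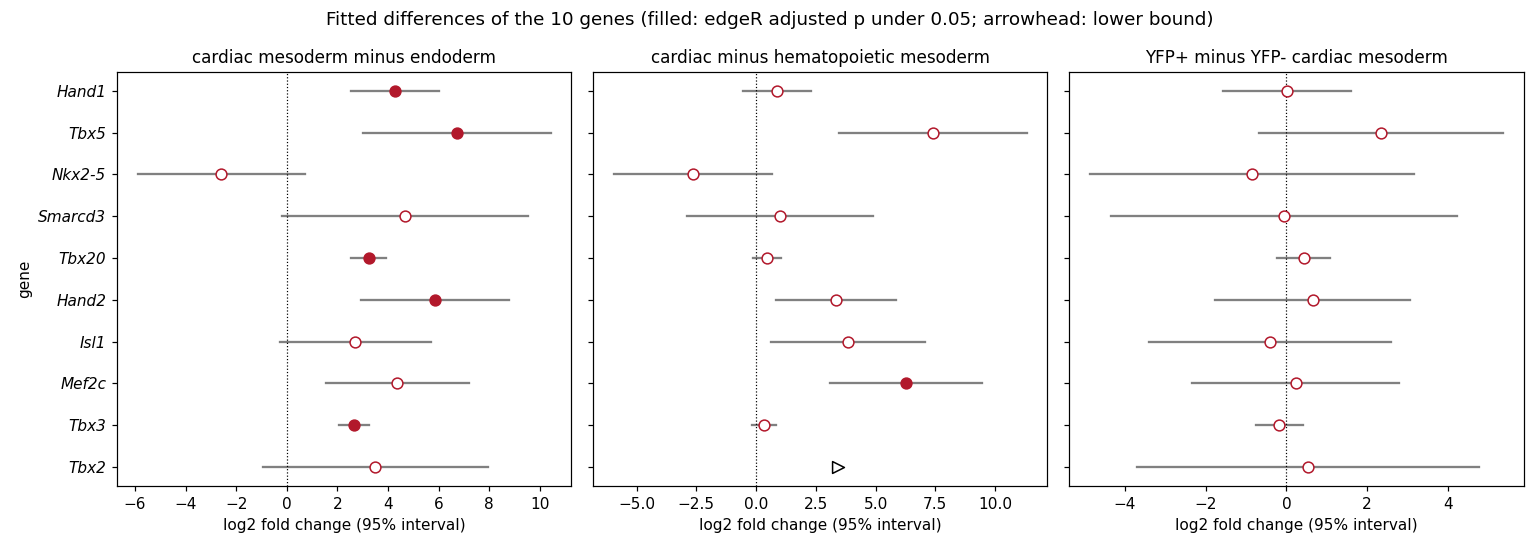
Fitted log2 fold change of each gene with its 95% interval, for the mean of both cardiac fractions minus endoderm, the same minus hematopoietic mesoderm, and YFP+ minus YFP- cells; filled points passed the edgeR adjusted p of 0.05 and the arrowhead is the lower bound for Tbx2, which had no count in hematopoietic mesoderm. In the panel for endoderm 5 points are filled, in that for hematopoietic mesoderm 1, and in that for the fractions 0.

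Against hematopoietic mesoderm fewer members separated. YFP+ cells had 1 call, Tbx5, where 1.15% of genes were called higher, and 4 of 10 genes with every library above (Tbx5, Hand2, Isl1 and Mef2c), as for 8.12% of genes. YFP- cells had 0 edgeR calls, where 0.593% of genes (84) were called, although 5 of 10 had an unadjusted p under 0.05 (17.4% of genes did). DESeq2 called 3 (Tbx5, Isl1 and Mef2c), where it called 1053 genes, and limma voom called 0, where it called 95 genes. In YFP- cells 4 of 10 had every library above (Hand2, Isl1, Mef2c and Tbx2), beside 11.8% of genes. For the mean of both fractions the median difference was 0.94 for the first heart field group and 3.60 for the second heart field group, beside 0.02 for all genes, and the groups were not tested against each other. Without hematopoietic replicate 3 the order of the groups turned, with medians of 4.55 for the first and 4.28 for the second heart field group (3.94 with Isl1, which then had no hematopoietic count, at the bound that 3 counts per library give), beside 0.11 for all genes. Over the other 8 fits that left out 1 library, the first heart field median ran from 0.46 to 1.73 and the second from 3.06 to 4.75 (4.25 with Mef2c, which had no count in the hematopoietic libraries of that fit, at its bound). With hematopoietic replicate 3 left out, the YFP+ calls were 2 (Tbx20 and Isl1), the YFP- call was 1 (Isl1), and Tbx5 in YFP+ cells moved to an edgeR adjusted p of 0.0681. Endoderm and hematopoietic mesoderm differed in 3 members, Tbx20, Hand1 and Tbx3, all lower in endoderm, where 2.42% of genes were called lower. Of these, Hand1 (-3.39 ± 0.81 SE, edgeR adjusted p = 0.0325) was no longer called without endoderm replicate 1 (0.136) or 2 (0.112) or hematopoietic replicate 3 (0.0945). In that last fit Isl1 was called higher in endoderm (edgeR adjusted p = 0.0368), at least 5.04-fold against 3 counts per hematopoietic library, so that 1 of the 3 members called was then higher in endoderm.

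Hematopoietic replicate 3 had some members at or above cardiac levels and little or none of others. Its Hand1, Tbx20 and Tbx3 were at 416.9, 518.1 and 477.3 CPM, all within or above the cardiac range, and it held the highest Smarcd3 (18.1 CPM) and Isl1 (4.2 CPM) of its type. Tbx5, Mef2c and Tbx2 had no count there and Hand2 was at 0.42 CPM. Beside these values, the summed cardiac mesoderm markers, a list of 10 that includes Hand1, Tbx5, Nkx2-5 and Smarcd3, were at 1883 CPM in this library against 931.6 and 1023 CPM, and the 14 hematopoietic and endothelial markers at 1640 CPM (12 with counts) against 2430 and 2691 CPM (13 with counts each). Of the cardiac mesoderm sum, 964.8 CPM was Kdr, the sort marker of hematopoietic mesoderm, against 664.7 and 700.0 CPM in the other libraries of this type. Gata4 and Gata6 were at 254.7 and 172.0 CPM, within the cardiac range. Pdgfra was at 48.3 CPM, below the lowest cardiac library (203.9 CPM), and Mesp1 had no count. The 8 heart muscle markers summed to 156.7 CPM against 25.8 and 18.4 CPM. Actc1, cardiac actin, made up 137.6 CPM of it and Tnnt2, troponin T, 17.9 CPM, whereas Myl7, an atrial light chain, was at 1.26 CPM against 25.5 and 18.2 CPM in the other two. The part that these markers have in the hematopoietic comparisons was not tested.

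**Figure D3:**
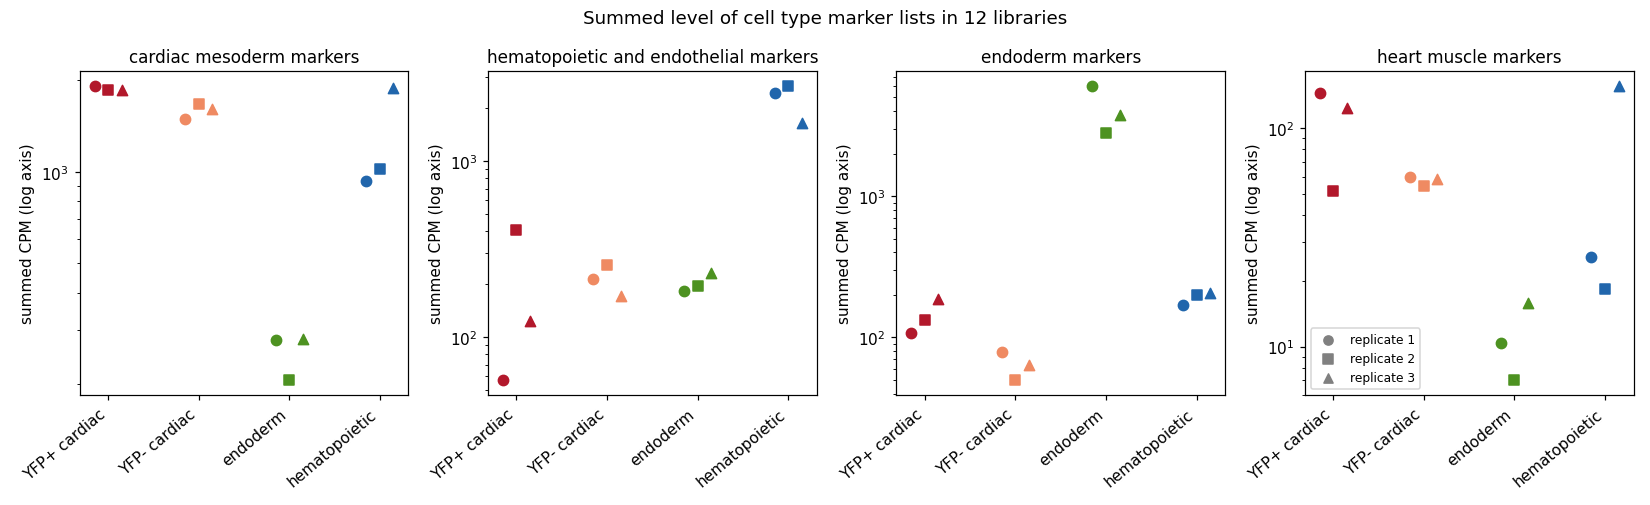
Summed CPM (log axis) of 4 marker lists in the 12 libraries, by sorted type, with marker shape for the replicate number. In hematopoietic mesoderm, replicate 3 is highest for cardiac mesoderm markers (1883 CPM) and heart muscle markers (156.7 CPM) and lowest for hematopoietic and endothelial markers (1640 CPM).

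The comparison of YFP+ with YFP- cells asks whether Foxa2 history goes with a difference in these regulators among cardiac cells. No member was called by edgeR, as for all 14170 genes (0% called, and 1062 genes, 7.49%, at an unadjusted p under 0.05), and none of the 10 had an unadjusted p under 0.05. DESeq2 and limma voom also called 0 members, where DESeq2 called 110 genes. Hand2 was the only member whose libraries did not overlap between fractions, as in 12.1% of genes, with 38.1 to 54.5 CPM in YFP+ and 27.4 to 29.2 CPM in YFP- cells. Its log2 difference was 0.66 (95% interval -1.76 to 3.07, edgeR adjusted p = 0.978), with an interval that also carries the spread within the other types. Tbx5 had the largest fitted difference, 2.34 (95% interval -0.69 to 5.36, edgeR adjusted p = 0.770). The lowest YFP+ library (20.2 CPM) lay below the highest YFP- library (30.0 CPM). For Isl1 the interval of YFP+ minus YFP- ran from -3.40 to 2.59 on the log2 scale.

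The abundant members gave the narrowest limits on a difference between fractions. Each interval rests on 1 spread per gene, estimated over all 12 libraries. It therefore also carries the spread within endoderm and hematopoietic mesoderm, not only that of the cardiac libraries. For Tbx3 the interval of YFP+ minus YFP- ran from -0.76 to 0.41 on the log2 scale, and for Tbx20 from -0.23 to 1.08. Hand1 had means of 335.0 ± 42.8 and 332.7 ± 24.8 CPM (SD, n = 3), with an interval of -1.57 to 1.59. For Mef2c it was -2.33 to 2.78, and for Nkx2-5, Smarcd3 and Tbx2 it spanned more than 8 log2 units. A difference of several fold was therefore not detectable for these genes in this fit. The median difference between fractions was -0.02 for first and 0.33 for second heart field genes, beside 0.03 for all genes tested. Markers of other cell types were summed in both fractions. The 14 endoderm markers came to 107, 132 and 187.8 CPM in YFP+ and to 78.9, 49.6 and 64.3 CPM in YFP- cells, with no overlap of the sums. Among them, Cer1 was at 31.2, 10.4 and 67.7 against 2.35, 4.76 and 3.77 CPM, and Apob at 8.74, 59.8 and 28.9 against 4.19, 3.22 and 3.04 CPM. Epcam and Hhex overlapped, with Epcam at 11.2, 17.0 and 39.4 CPM in YFP+ and 36.0, 25.8 and 43.0 CPM in YFP- cells. The sums of the 10 cardiac mesoderm markers, some of which are members, also did not overlap, at 1856 to 1923 CPM in YFP+ and 1490 to 1677 CPM in YFP- cells. The 14 hematopoietic and endothelial markers came to 56.8, 407.2 and 124 CPM in YFP+ cells, with 8, 12 and 10 of them counted, and to 213.7, 258.4 and 170.8 CPM in YFP- cells, with 10 counted in each. YFP+ replicate 2 stood highest, with Tal1 at 174.4, Runx1 at 96.4 and Pecam1 at 58.9 CPM, while Gata1 and Cdh5 were at or below 0.911 CPM and Hba-x was at 0. The part of these markers in the differences between fractions was not tested.

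Other genes of the cardiac programme were counted from lists compiled from general knowledge. For both fractions together, 1.34% of all genes tested were called higher than in endoderm, and the median difference was -0.02. Over hematopoietic mesoderm 1.26% were called higher and 1.32% lower. Among 7 upstream mesoderm genes, Kdr, the VEGF receptor (5.62 ± 0.36 SE, edgeR adjusted p = 2.3e-06), and Pdgfra, a PDGF receptor (4.58 ± 0.73, 0.00366), were higher in both fractions together than in endoderm, with a list median of 3.15. Over hematopoietic mesoderm Pdgfra (3.60 ± 0.69, edgeR adjusted p = 0.0196) and Mesp1, an early cardiac regulator (7.14 ± 1.41, 0.0211), were higher and T, brachyury, was lower (-1.69 ± 0.40, 0.0450). Of 10 tested cofactors out of 14, Gata4 (1.45 ± 0.28, edgeR adjusted p = 0.0109) and its partner Zfpm1 (2.27 ± 0.52, 0.0263) were higher than in endoderm, with a list median of 0.58. Of 12 tested second heart field genes outside the 10, Fgf10, a secreted growth factor (2.65 ± 0.38, edgeR adjusted p = 0.00191), and Foxf1, a forkhead factor (7.16 ± 0.94, 0.00103), were higher than in endoderm.

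Foxf1 was also higher than in hematopoietic mesoderm (5.16 ± 0.83 SE, edgeR adjusted p = 0.00836). Foxc1 passed as well (0.0145), with 28.4 ± 32.4 CPM in YFP+ and 15.7 ± 4.09 CPM in YFP- cells (SD, n = 3) and no count in hematopoietic mesoderm. The 4 tested first heart field genes outside the 10 lay below endoderm in the fit, with a median of -4.99, beside -0.02 for all genes. Their edgeR adjusted p ran from 0.0666 (Mab21l2) to 0.302 (Bmp2). The size of that median rests on cardiac values at or near the floor. Mean levels in YFP+, YFP- and endoderm were 0, 4.86 and 18.6 CPM for Sfrp5 and 0.425, 0 and 4.52 CPM for Mab21l2. Nr2f2 was at 0.478, 0.158 and 6.32 CPM, and Bmp2 at 72.1, 101.8 and 141.3 CPM. In the BAF complex, Smarca2, a catalytic subunit, was lower in cardiac than in hematopoietic mesoderm (-1.15 ± 0.26 SE, edgeR adjusted p = 0.0384). It was 1 of 13 subunits tested, where 1.32% of all genes were called lower. Of 8 tested heart muscle genes out of 16, Myl7 was higher in cardiac mesoderm than in endoderm (4.64 ± 0.91 SE, edgeR adjusted p = 0.0123), and Myh6 had no count in any cardiac library. No test was made of the lists themselves.

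Across the 12 libraries, the members fell into groups by the correlation of log2(CPM + 1), given as a description of libraries that share type, depth and scaling. Tbx20 and Tbx3 correlated at 0.94, Hand1 and Tbx3 at 0.94 and Tbx20 and Hand1 at 0.91. Hand2 and Isl1 each went with Mef2c at 0.90. Nkx2-5 ran from -0.44 with Hand2 to -0.05 with Tbx2, negative with all the others. Among 10238 genes, the most alike were Prtg for Tbx20 (0.980), Zfp516 for Hand1 (0.965), Phlda2 for Tbx3 (0.967), Klhl6 for Hand2 (0.987), Lef1 for Isl1 (0.955), Cacna1c for Mef2c (0.953) and Zgpat for Tbx5 (0.893). Phlda2 was among the 3 most alike genes of Tbx20, Hand1 and Tbx3, Foxf1 among those of Hand2 (0.955), and Mesp1 among those of Mef2c (0.949).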

How the data were processed

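RNA of 12 sorted libraries was measured by sequencing after low-input amplification, per the labels' protocols. The authors deposited whole-number read counts, not normalized, for 38924 Ensembl genes. The 5 summary categories were left out, and genes held 18.3% to 21.5% of tallied reads. STAR 2.5.0a, HTSeq 0.6.0, Picard, DESeq2 and the build mm10 are named in the submitters' processing notes, without roles; the annotation and strand setting are not given in the sources used here. Symbols were found for 37607 genes. Places and exon lengths come from GENCODE M21 (GRCm38).

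Counts were fitted with edgeR 4.0.16 in R 4.3.3 (TMM scaling, default expression filter, quasi-likelihood F test, 1 coefficient per type, all 12 libraries, with a two-sided p). Benjamini-Hochberg adjustment ran over all 14170 genes, and an adjusted p under 0.05 is a call. Standard errors and 95% intervals were derived from the F statistic. Intervals of count ratios and floors of 3 counts cover counting error only, since amplified reads are not independent molecules. The script was tested on simulated data. All 10 members are named; a gene of another list is named where it was called for both cardiac fractions together, except 1 that is not reported here, and the 3 most alike genes of a member were taken among genes of at least 5 CPM on average. Members and lists were chosen with earlier results of these data known.

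The alternatives were a fit without the filter, a filter at a mean of 5 CPM, RLE scaling, the replicate block, DESeq2 1.42.0, limma 3.58.1 voom with quality weights, only the 2 types compared, plain totals, and each library left out. The titles give the replicate numbers. The deposited files carry 1 date per number, whose meaning is not stated.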

Additional observations from a re-analysis of the deposited data

How the results depend on the processing

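Of 1060 alternative fits of 80 member comparisons, 923 kept direction and side of the threshold, 56 lost a call, 50 gained one and 31 changed sign; the cause was not tested. The calls of Tbx20 and Tbx3 over endoderm, and their lower level in endoderm than in hematopoietic mesoderm, held in all fits.

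Members called changed as follows, with the number of all genes called in parentheses. Changes with the replicate block that are not named here are given below. Among the 4 types, 6 (854) became 9 (2209) with voom. For YFP+ cells over endoderm, 4 (218) became 3 (195) with RLE scaling, 5 (272) without the filter and 5 (263) at a minimum of 5 CPM. That count became 6 with DESeq2 (916), with voom (1130) and with only the 2 types (1063). For YFP- cells over endoderm, 3 (185) became 6 (605) with DESeq2, 8 (1812) with voom and 6 (1360) with only the 2 types. For YFP+ cells against hematopoietic mesoderm, 1 (253) became 2 (317) at a minimum of 5 CPM and 5 (1492) with DESeq2. It became 0 with voom (18), with only the 2 types (13) and with the replicate block (133). For YFP- cells against hematopoietic mesoderm, 0 (84) became 3 (1053) with DESeq2. Between endoderm and hematopoietic mesoderm, 3 (800) became 2 (1258) with only the 2 types. For both fractions, 5 (640) over endoderm became 6 (921) with DESeq2 and 9 (2512) with voom. Over hematopoietic mesoderm, 1 (366) became 2 (624) without the filter, 2 (486) at 5 CPM, 5 (1616) with DESeq2 and 0 (166) with voom. Leaving out each library gave 2 to 7 for the 4 types, 2 to 3 for YFP+ and 2 to 3 for YFP- over endoderm, 0 to 2 for each fraction against hematopoietic mesoderm, 2 to 3 between endoderm and hematopoietic mesoderm, 2 to 4 and 0 to 2 for both fractions, and 0 between fractions.

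The replicate numbers were not taken as a pairing, since the labels do not say what a number shares. Deviations from type means of same-numbered libraries correlated at -0.0151 to 0.0371 over 18 pairs. However, 9 of 12 libraries correlated best with their own number in the other types, so the fit with the replicate block is given beside the fit reported. With the replicate block, 4 members differed among the types (6 without it), where 467 of all genes were called (854 without it). Over endoderm 3 and 3 members were called (178 and 143 genes), and against hematopoietic mesoderm 0 and 0 (133 and 31 genes). Between endoderm and hematopoietic mesoderm 3 were called (545 genes), for both fractions 4 and 1 (412 and 236 genes), and between fractions 0 (0 genes). Calls not made with the replicate block were Tbx5 (edgeR adjusted p = 0.0921 for YFP+ against hematopoietic mesoderm, 0.108 for both over endoderm) and Hand2 (0.0716 for YFP+ over endoderm). Over all settings with 12 libraries or 2 types, edgeR, DESeq2 and voom called 467 to 2209 of all genes among the 4 types (854 in the fit reported), 178 to 1130 (218) for YFP+ and 143 to 1812 (185) for YFP- over endoderm, 13 to 1492 (253) and 10 to 1053 (84) against hematopoietic mesoderm, 545 to 1863 (800) between endoderm and hematopoietic mesoderm, 0 to 110 (0) between fractions, and 388 to 2512 (640) and 166 to 1616 (366) for both fractions. With the block, Nkx2-5 changed sign for endoderm against hematopoietic mesoderm (1.69) and between fractions (0.89), and Tbx2 between fractions (-0.43). With voom, Nkx2-5 changed sign against hematopoietic mesoderm (1.02 in YFP+, 1.02 in YFP-, 1.02 in both, 3.07 in endoderm), as did Hand1 (-0.02) and Tbx2 (-0.62) between fractions.

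Leaving out 1 library changed signs only of differences that were not called. The log2 ranges against hematopoietic mesoderm were, for Nkx2-5, -3.66 to 2.60 (YFP+), -4.37 to 3.45 (YFP-), -3.73 to 3.02 (both) and -0.64 to 5.62 (endoderm). For Smarcd3 they were -0.82 to 6.70, -0.19 to 6.76 and, in endoderm, -8.20 to 2.08, for Tbx20 in YFP- cells -0.00 to 0.74, and in endoderm -4.03 to 0.37 for Hand2 and 0.00 to 5.39 for Tbx2. Between fractions they were -1.37 to 1.27 for Nkx2-5, -0.10 to 0.08 for Hand1, -0.64 to 0.01 for Isl1, -0.34 to 0.53 for Mef2c, -1.85 to 1.16 for Smarcd3, -0.17 to 1.33 for Tbx2 and -0.32 to 0.00 for Tbx3.

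Depth limits the low members: 3 counts equal 0.357 to 0.723 CPM.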
